A study of Mus musculus with 18 samples.

Results

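Wild-type (WT) mouse oocytes at metaphase II (MII) were compared with WT oocytes at the germinal vesicle stage (GV), using 6 of the 18 RNA-seq libraries of the series. The 6 were taken by their labels, 3 for each stage, and 8680 of the 27874 genes in the table were tested, those with at least 1 FPKM (read fragments relative to exon length and library size) in 3 or more of the 6 libraries. Each library was a pool of 15 oocytes of the genotype labelled LSM14B_WT. The MII oocytes were collected 14 h after human chorionic gonadotropin (hCG), the hormone given to trigger ovulation, and the GV oocytes were in prophase arrest. The sources used here state neither strain nor age of the mice. The other 12 libraries of the series are WT oocytes at metaphase I (MI) and Lsm14b-/- (KO) oocytes at the same 3 stages. Lsm14b belongs to the LSM14 family, whose proteins bind mRNA in repressed cytoplasmic particles.

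A fully grown GV oocyte stops transcribing and holds a large store of maternal mRNA. When meiosis resumes, part of that store is translated for the first time, often after cytoplasmic lengthening of the poly(A) tail, and part is deadenylated and degraded, so that mRNA levels change with almost no new transcription. In vertebrate oocytes the tail is lengthened on mRNAs that carry a cytoplasmic polyadenylation element (CPE), a U-rich motif close to the poly(A) signal that is bound by CPEB1. Deadenylation in mouse oocytes runs mainly through the CCR4-NOT complex, which BTG4 brings to translating mRNAs. The libraries here were primed with oligo(dT), so an FPKM value may depend on poly(A) tail length and mRNA amount together, which were not separated. FPKM is also relative to the reads of a library: a change in the total mRNA of an oocyte cannot be seen, and a lower level in some of the 15 pooled oocytes cannot be told apart from a lower level in all of them.

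The library size behind the FPKM values, recovered from their steps, was 16260665 to 16861047 reads for the MII libraries and 14227763 to 16396231 reads for the GV libraries. 1 read in a gene of 1 kb was worth 0.0593 to 0.0703 FPKM. From 7581 to 8019 genes reached 1 FPKM in an MII library and 7986 to 8552 in a GV library. Across the tested genes, Pearson's r of log2(FPKM + 1) was 0.976 to 0.988 between MII libraries, 0.966 to 0.986 between GV libraries and 0.712 to 0.764 between the stages. The labels do not say that replicates came from separate mice, so p-values measure the spread between these samples, which may be technical. Defining oocyte genes (Gdf9, Bmp15, the Zp genes, Ooep, Padi6, H1foo, Oosp1 and others) were present, 15 of 15 passing the filter and 14 reaching 1 FPKM in all 6 libraries, and they summed to 6.99 ± 0.23% of all FPKM at MII and 10.04 ± 1.32% at GV (SD, n = 3 each). Of 19 cumulus and granulosa markers only Cyp19a1 (4.59, 6.09 and 4.66 FPKM at MII, against 3.13, 3.16 and 2.704 FPKM at GV) and Nr5a2 passed it. The 19 summed to 5.98 to 8.19 FPKM in MII libraries and 4.99 to 9.08 FPKM in GV libraries, Foxl2 was at 0 in all 6 libraries, and Amh, Amhr2, Hsd17b1 and Lhcgr were at 0 in the 3 MII libraries. Of 16 markers of theca, stroma, endothelium and blood only Pecam1 (4.71, 4.29 and 6.11 FPKM at MII, against 2.18, 3.04 and 1.77 FPKM at GV) passed.

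The transition from GV to MII changed most of the measured transcriptome, and the falls went much deeper than the rises. Of the 8680 genes, 6236 (71.8%) passed an adjusted p of 0.05, 3339 (38.5%) higher and 2897 (33.4%) lower at MII. The groups did not overlap for 6378 genes (73.5%), 39.7% of all genes being higher and 33.8% lower in every MII library. With a change of at least 2-fold, 1555 (17.9%) were higher and 2119 (24.4%) lower. At a log2 change of 2 or more the counts were 71 higher and 913 lower, and at 3 or more they were 2 higher and 349 lower. No gene was higher by a log2 change of 4 or more, against 126 lower, of which 36 were lower by 5 or more. The median log2 change was 0.96 among genes called higher and -1.47 among genes called lower. In all, 883 genes were at or above 1 FPKM in every GV library and in no MII library, and 393 showed the reverse.

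The median log2 change of all tested genes was 0.18. It was 0.06 with median-of-ratios scaling, 0.34 with quantile normalization, 0.44 on the TPM scale and 0.25 in a fit of the recovered reads, so a small change on the log2 scale has no fixed sign here, and gene groups are set against the median of 0.18. Calls in a gene group are likewise read against the 38.5% of all genes that rose and the 33.4% that fell. All log2 changes are on the log2(FPKM + 1) scale, MII minus GV, which understates the change of genes at low levels.

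**Figure D1:**
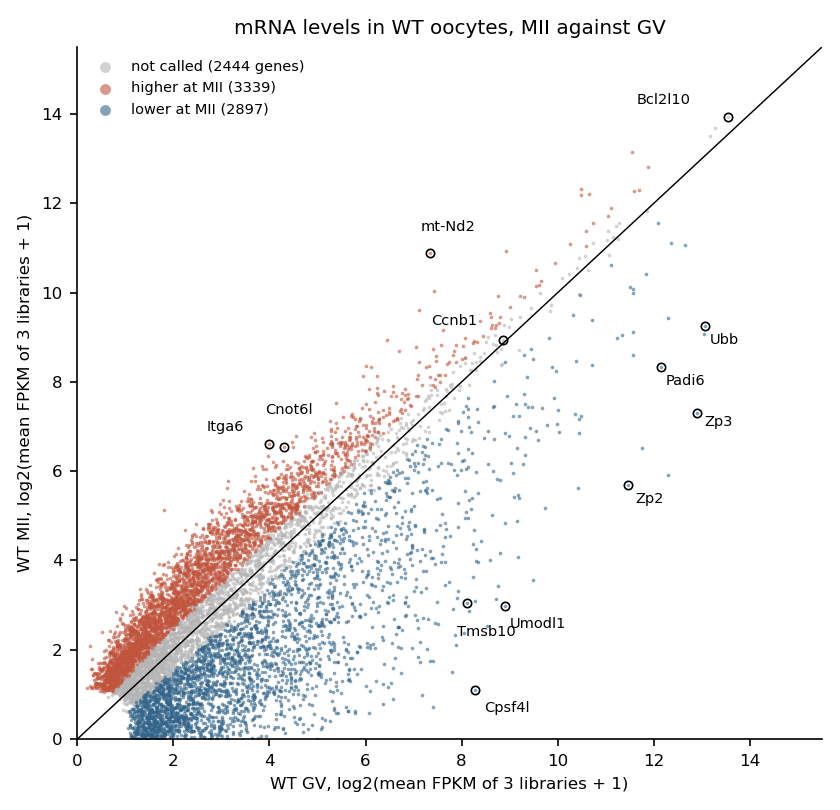
Mean level of the 8680 tested genes in WT oocytes, MII on the vertical and GV on the horizontal axis, both as log2(mean FPKM + 1) over 3 libraries. Points are genes called higher (3339), called lower (2897) or not called, the line marks equal levels, and the cloud below the line reaches much farther from it than the cloud above.

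Cpsf4l and genes of the egg coat were among the largest named falls. Cpsf4l (ENSMUSG00000018727, mm10 chromosome 11, 113698172 to 113710017), a paralog of the cleavage and polyadenylation factor gene Cpsf4, was measured at 1.43, 1.24 and 0.739 FPKM at MII, against 328, 347 and 253 FPKM at GV. That is 272-fold lower by the means (log2 change -7.18, SE 0.21, adjusted p = 2.92e-09). Zp2 (ENSMUSG00000030911, mm10 chromosome 7, 120126772 to 120145291) and Zp3 (ENSMUSG00000004948, mm10 chromosome 5, 135980099 to 135988624) encode the zona pellucida proteins that form the egg coat. Zp2 stood at 51.6, 48.8 and 50.6 FPKM at MII, against 2655, 3576 and 2271 FPKM at GV (56.3-fold lower, log2 change -5.76, SE 0.20, adjusted p = 3.9e-09). Zp3 stood at 188, 117 and 169 FPKM at MII, against 7687, 8916 and 6389.7 FPKM at GV (48.5-fold lower, log2 change -5.61, SE 0.23, adjusted p = 4.67e-09). In Zp2 and Zp3, as in Cpsf4l, the lowest GV library was far above the highest MII library. Groups without overlap were a condition for naming the largest changes, so their separation adds no support. List members were named by smallest p, and all 239 called genes named by rule had groups without overlap. Separation adds no support for these either.

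Housekeeping and trafficking genes stood beside the egg coat genes among the 15 largest named falls. Upp1, uridine phosphorylase, averaged 0.654 ± 0.353 FPKM at MII and 169 ± 29.7 FPKM at GV (SD, n = 3 each, log2 change -6.68). Fcf1, a ribosomal RNA processing factor, averaged 0.973 ± 0.271 FPKM at MII and 144 ± 43.6 FPKM at GV (log2 change -6.16), and Bud31, a spliceosome component, 4.75 ± 0.897 FPKM at MII and 366 ± 50.3 FPKM at GV (log2 change -6.00). Elof1, a transcription elongation factor, averaged 7.85 ± 1.66 FPKM at MII and 422 ± 25.8 FPKM at GV. Timm17a, a subunit of the mitochondrial inner membrane import channel, averaged 2.36 ± 0.895 FPKM at MII and 168 ± 24.8 FPKM at GV, and Stx5a, the syntaxin of transport between endoplasmic reticulum and Golgi, 4.17 ± 0.5702 FPKM at MII and 263 ± 57.02 FPKM at GV. Umodl1 averaged 6.91 ± 1.39 FPKM at MII and 479 ± 40.7 FPKM at GV, and Ninj2, a membrane protein of the ninjurin family, 10.8 ± 1.604 FPKM at MII and 717 ± 114 FPKM at GV. Fam162a, Rnaset2a (ribonuclease T2), Rps27a and Rps13 completed the 15, with log2 changes of -6.31, -5.79, -5.70 and -5.58. Exons of other genes cover 19.8% of the exon bases of Fam162a, 15.2% of Bud31 and 27.2% of Rnaset2a, and the sources used here do not state how such reads were counted.

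The largest rises were smaller and joined mitochondrial transcripts with nuclear genes of varied roles. mt-Nd2, the complex I subunit encoded in mitochondrial DNA, was measured at 1295, 2152 and 2192 FPKM at MII, against 177, 91.9 and 215 FPKM at GV (11.7-fold higher, log2 change 3.58, SE 0.31, adjusted p = 1.3e-06). Itga6 (ENSMUSG00000027111, mm10 chromosome 2, 71745616 to 71858416), the integrin alpha 6 subunit on the egg surface, was measured at 107, 89.4 and 91.9 FPKM at MII, against 21.4, 12.2 and 11.2 FPKM at GV (6.44-fold higher, log2 change 2.66, SE 0.24, adjusted p = 1.83e-06). The 3 MII libraries stood above all GV libraries in both, as the rule for naming the largest changes required. GV replicate 1 was the highest GV library for Itga6. Fmn2, the formin that nucleates actin for spindle migration in mouse oocytes, averaged 65.9 ± 5.297 FPKM at MII and 11.6 ± 4.58 FPKM at GV (log2 change 2.47). Cnot6l, a catalytic deadenylase subunit of CCR4-NOT, averaged 92.1 ± 11.6 FPKM at MII and 18.8 ± 6.18 FPKM at GV (log2 change 2.27), and Nipbl, the cohesin loader, 33.8 ± 4.01 FPKM at MII and 5.85 ± 1.55 FPKM at GV (log2 change 2.37). Psme4, which encodes the PA200 activator of the proteasome, averaged 40.04 ± 4.49 FPKM at MII and 7.14 ± 2.895 FPKM at GV, and Rif1, a regulator of replication timing and break repair, 79.9 ± 11.00 FPKM at MII and 14.6 ± 6.27 FPKM at GV. Phf3, Rab10 (a vesicle GTPase), Ppp1r3d (a targeting subunit of protein phosphatase 1), Plekha3, Tiam1 (a RAC exchange factor), Kdm7a (a histone demethylase), mt-Nd4 and mt-Nd6 completed the 15, with log2 changes of 2.26 to 2.65.

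**Figure D2:**
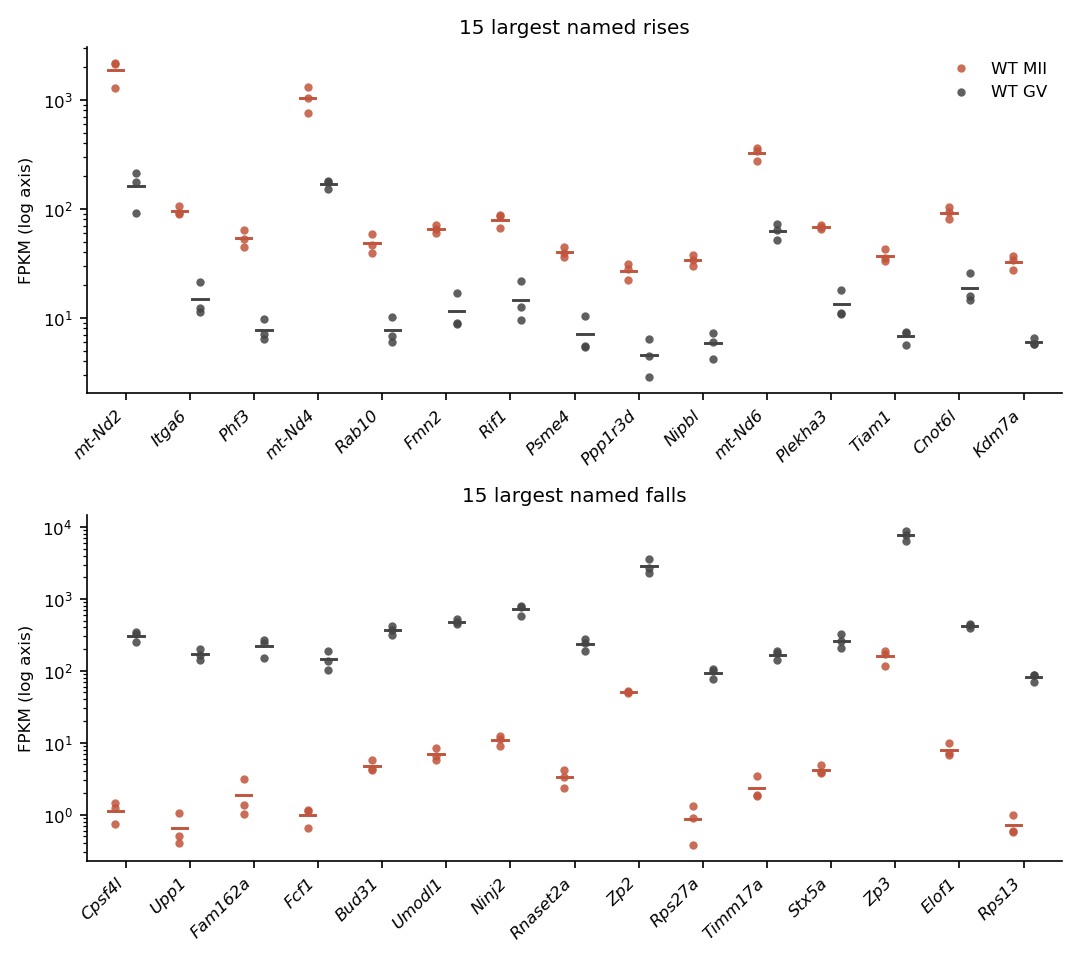
FPKM of the 15 largest named rises (top) and falls (bottom) in each WT library, on a log axis; points are the 3 MII libraries (left of each pair) and the 3 GV libraries (right), and bars are means. Genes whose stages overlap were not eligible. Log2 changes run from a log2 change of 3.58 for mt-Nd2 to -7.18 for Cpsf4l.

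Stored mRNAs that mouse oocytes are known to recruit for translation in maturation rose more often than they fell. Of 23 tested, 14 rose and 3 fell, where 38.5% of all genes rose and 33.4% fell, and the median log2 change was 0.64 (0.48 to 1.01 over 4 other scalings), against 0.18 for all genes. With median-of-ratios scaling 10 rose and 4 fell, where 2982 of the 8680 genes rose and 3108 fell. With quantile normalization 18 rose and 2 fell, where 3914 of the 8680 rose and 2689 fell. Bub1b, which encodes the checkpoint kinase BUBR1, was measured at 454, 411 and 403 FPKM at MII, against 204, 169.6 and 133 FPKM at GV (log2 change 1.34, SE 0.20, adjusted p = 0.000102). Dcp1a, a cofactor of the decapping enzyme, was measured at 193, 148 and 203 FPKM at MII, against 69.5, 67.4 and 52.3 FPKM at GV (log2 change 1.51, SE 0.20, adjusted p = 4.43e-05), and Dcp2, the decapping enzyme itself, at 13.00, 17.5 and 11.6 FPKM at MII, against 4.91, 4.52 and 4.86 FPKM at GV (log2 change 1.37, SE 0.21, adjusted p = 0.000116). Every MII library was above every GV library in all 3 genes, but all 239 called genes named by rule had groups without overlap. Fbxo43, which encodes EMI2, the protein that holds the MII arrest by inhibiting the anaphase-promoting complex (APC), rose as well, at 118, 73.1 and 97.9 FPKM at MII, against 43.7, 42.4 and 45.9 FPKM at GV (log2 change 1.09, SE 0.21, adjusted p = 0.000598). Btg4 stood at 4638, 5512 and 4687 FPKM at MII, against 2743, 2150.2 and 4379 FPKM at GV (log2 change 0.74, SE 0.25, adjusted p = 0.0206); this call held neither without each library nor with median-of-ratios scaling. The 3 members that fell were Ccnb2, Wee2 and Cdc6, with log2 changes of -0.62, -0.63 and -0.48, calls that did not hold on the TPM scale, and Mos and Plat did not pass the test, with log2 changes of -0.15 and -0.50.

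The 3′ ends of these transcripts are shown because the CPE lies there. Of the 23 members, 22 have an annotated 3′ untranslated region (UTR) of at least 100 bases, and 8 of these hold TTTTAT or TTTTAAT within their last 100 bases, of which 5 rose. Of the 14 without the motif 9 rose. The windows below are 30 bases long, given 5′ to 3′ on the transcript strand from GENCODE vM21 with mm10 coordinates, and capitals mark the motif. The first 5 are the members that rose and the next 2 are the ones among the 15 largest rises that hold the motif, out of 12 with an annotated 3′ UTR of at least 100 bases.
Bub1b, chr2:118641556-118641585, plus strand: cactgtgtaTTTTATaataaaatagttttt
Dcp1a, chr14:30527011-30527040, plus strand: aaatatatttTTTTAATaaaatttcaaaac
Pan2, chr10:128321309-128321338, plus strand: acagcatgTTTTATaaaataaaagtatttt
Orc6, chr8:85308005-85308034, plus strand: tggttttttaaaTTTTATttcactaaatgt
Btg4, chr9:51119797-51119826, plus strand: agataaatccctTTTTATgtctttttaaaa
Rif1, chr2:52122304-52122333, plus strand: aaactgccatttTTTTATatgtacgttttt
Tiam1, chr16:89787162-89787191, minus strand: aagaaggtctatTTTTATgtttttaggtct
Btg4 has no AATAAA or ATTAAA in the last 40 bases of the annotated transcript.

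The motif also stood in members that did not rise, and these windows, chosen after their values were seen, are given for comparison.
Wee2, chr6:40466766-40466795, plus strand: taTTTTAATccagatcattgtaaataaaga
Plat, chr8:22782745-22782774, plus strand: gtatatttataTTTTAATctattttagttt
Cnot7, chr8:40493036-40493065, minus strand: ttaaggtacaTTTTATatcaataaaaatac
The poly(A) signal AATAAA follows or overlaps the motif within the window of Bub1b, Pan2 and Dcp1a, which rose, and also of Wee2 and Cnot7, which did not. Wee2, the oocyte kinase that inhibits CDK1, averaged 257 ± 18.8 FPKM at MII and 404 ± 96.6 FPKM at GV and fell. Plat, tissue plasminogen activator, averaged 420.5 ± 117 FPKM at MII and 582 ± 80.8 FPKM at GV (adjusted p = 0.0731), and Cnot7, a CCR4-NOT deadenylase, 82.9 ± 10.3 FPKM at MII and 63.6 ± 8.13 FPKM at GV (adjusted p = 0.0935). Of the 15 largest named falls, 9 have an annotated 3′ UTR of at least 100 bases, and 0 of the 9 hold the motif in their last 100 bases. Zp3 and Zp2 have annotated 3′ UTRs of 13 and 49 bases.

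Across the transcriptome the same motif was more frequent at the ends of transcripts that rose and rarer in those that fell. Among 5457 protein-coding genes with an annotated poly(A) signal (AATAAA or ATTAAA) in the last 40 bases and at least 100 bases of 3′ UTR, 1242 (22.8%) held TTTTAT or TTTTAAT in the last 100 bases on the transcript strand. The share was 33.7% of those that rose at least 2-fold (388 of 1152), 7.69% of those that fell at least 2-fold (80 of 1040) and 23.7% of the others. The median log2 change was 0.70 with the motif and 0.22 without it. By the number of copies it was 0.22 for 0 copies (4215 genes), 0.69 for 1 (1033), 0.73 for 2 (186) and 1.08 for 3 or more (23). Among genes with a 3′ UTR of 500 to 2000 bases the shares were 33.9% (rose), 7.26% (fell) and 23.1% (others). Among genes with a coding length of 1000 to 2000 bases they were 34.7%, 6.53% and 24.5%. TGTANATA, the Pumilio element, stood in 6.94% of the genes that rose and 3.75% of those that fell, and TATTTAT, an AU-rich element, in 6.60% and 1.92%. Within the same 3′ UTR limits TGTANATA stood in 6.06% and 2.66%, and TATTTAT in 7.01% and 0.969%. Within the same coding length limits TGTANATA no longer differed much, with 4.41% and 4.18%, and TATTTAT stood in 5.23% and 2.09%. These shares describe annotated sequences, no site was tested for use, and the groups were not matched for base composition.

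Transcript length went with the direction of change. Across 7377 protein-coding genes with an annotated transcript, the median coding length was 2058 bases for genes that rose at least 2-fold, 906 bases for genes that fell at least 2-fold and 1428 bases for the others. The median 3′ UTR lengths were 1506 bases, 423 bases and 1038 bases in the same order. Of 512 genes with a coding length of 4000 bases or more, 50.6% rose and 2.34% fell at least 2-fold, while of 721 genes with under 500 bases 6.80% rose and 48.8% fell. Spearman's rank correlation across genes between log2 change and coding length was 0.409 (0.406 to 0.428 over the other scalings), and with 3′ UTR length 0.341. It was 0.383 for coding length without the ribosomal and respiratory lists (7171 genes) and also 0.383 among 1611 genes with a mean of at least 20 FPKM over both stages. GC content of the coding part had a rank correlation of -0.185. Genes are not independent replicates, and coding length, UTR length and function were not separated. Whether cDNA synthesis, amplification or tail length plays a part in the relation was not tested.

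**Figure D3:**
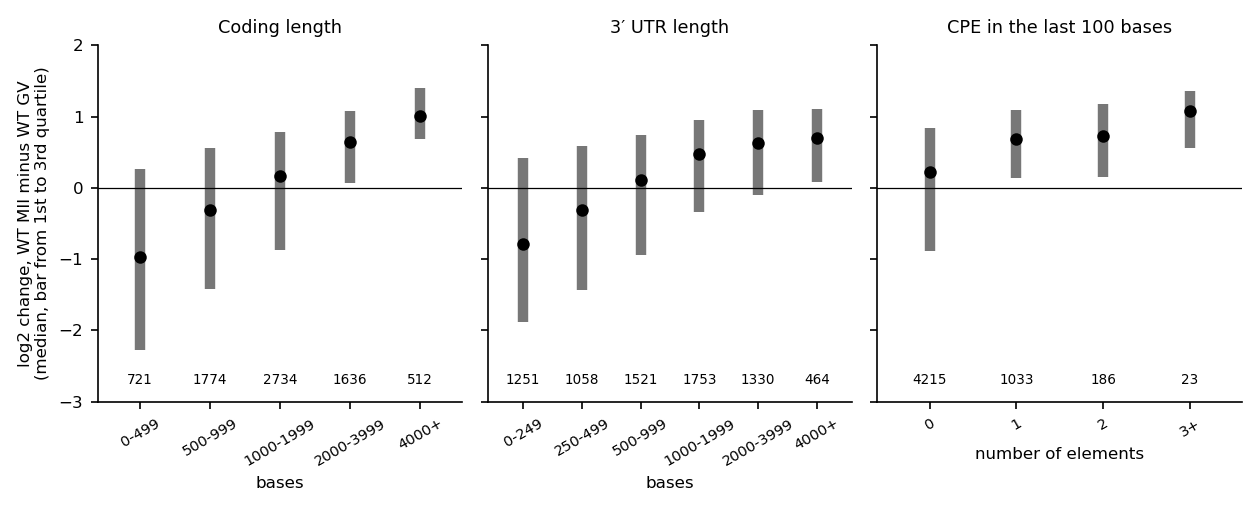
Log2 change from WT GV to WT MII by annotated coding length, 3′ UTR length and number of CPE motifs in the last 100 bases; dots are medians, bars run from the first to the third quartile, and the number of genes is printed under each bar. The median runs from -0.97 below 500 coding bases to 1.01 at 4000 or more, and from 0.22 without a CPE to 1.08 with 3 or more.

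Most tested nuclear genes of ribosomes and respiration fell, while mitochondrial DNA transcripts rose. Of 40 large-subunit and 30 small-subunit cytosolic ribosomal protein genes tested, 38 and 27 fell and 0 rose, with median log2 changes of -2.39 and -2.76, although 1 small-subunit gene rose with quantile normalization and with TPM scaling. Rps27a, which encodes a ubiquitin fusion, was measured at 1.32, 0.894 and 0.374 FPKM at MII, against 107, 76.8 and 99.9 FPKM at GV, and Rpl6 at 0.548, 0.658 and 0.4700 FPKM at MII, against 42.98, 32.05 and 44.4 FPKM at GV. Rps6, whose protein is phosphorylated downstream of mTOR, was measured at 4.94, 6.29 and 2.99 FPKM at MII, against 111, 81.9 and 111 FPKM at GV. The lowest GV library was more than 10 times the highest MII library in each of the 3. Ribosomal protein genes have many processed copies in the genome, and the sources used here do not state how reads were shared between copies. Of 66 mitochondrial ribosomal protein genes, 53 fell and 5 rose (median -1.81), with Mrpl55 at 1.295 against 63.1 FPKM at MII and GV.

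Nuclear subunits of the respiratory chain followed the ribosomal genes. Of 35 complex I subunits 32 fell and 0 rose (median -2.58), and of 35 subunits of complexes II to V 31 fell and 2 rose (median -2.44). Ndufb11, a complex I subunit, was measured at 3.98, 3.95 and 4.13 FPKM at MII, against 256, 214 and 224 FPKM at GV (57.5-fold lower, log2 change -5.53, SE 0.18, adjusted p = 2.92e-09). Cox4i1, a subunit of cytochrome c oxidase, was measured at 0.459, 0.392 and 0.159 FPKM at MII, against 38.4, 28.1 and 37.4 FPKM at GV, and Uqcrq, a subunit of complex III, at 0.777, 0.896 and 0.705 FPKM at MII, against 40.1, 33.2 and 41.6 FPKM at GV. In each of these too the highest MII value was under the lowest GV value by more than 10 times.

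Protein-coding genes of mitochondrial DNA moved the other way. Of 12 tested, 12 rose and 0 fell, with a median of 1.81 (1.65 to 2.16 over 4 other scalings), and the 13 summed to 6.88 ± 1.63% of all FPKM at MII and 1.62 ± 0.185% at GV (SD, n = 3 each). mt-Co1, the catalytic subunit of cytochrome c oxidase, was measured at 4519, 5528 and 5338 FPKM at MII, against 1236, 1559 and 1500.2 FPKM at GV (log2 change 1.84, SE 0.19, adjusted p = 6.37e-06). mt-Cytb, cytochrome b of complex III, was measured at 5857, 11407 and 10045 FPKM at MII, against 2667, 2342 and 3993 FPKM at GV (log2 change 1.58, SE 0.28, adjusted p = 0.000367). MII replicate 1 was the lowest of its group in both, and above every GV library. The ribosomal RNA mt-Rnr2 stood at 3341, 6517 and 4417 FPKM at MII, against 1539, 1801 and 1468 FPKM at GV. Nuclear copies of mitochondrial DNA share sequence with these genes. Among 13 genes for mitochondrial DNA upkeep and mitochondrial dynamics 4 rose (30.8%, against 38.5% of all genes) and 6 fell (46.2%, against 33.4%). Their median of -0.35 changed sign over the scalings (-0.50 to 0.16). Polrmt, the mitochondrial RNA polymerase, fell to 0.3798, 0.259 and 0.538 FPKM at MII, against 9.48, 9.79 and 6.11 FPKM at GV (log2 change -2.74, SE 0.21, adjusted p = 5.63e-07).

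Translation factors fell more often than they rose. Of 38 initiation and elongation factor genes 12 rose (31.6%, against 38.5% of all genes) and 20 fell (52.6%, against 33.4%), with a median of -0.66. The EIF3 subunit genes Eif3g, Eif3l and Eif3m fell to 3.196, 1.46 and 4.66 FPKM at MII, against 101, 49.9 and 102 FPKM at GV. Eif1ax, an initiation factor of start site choice, averaged 5.05 ± 1.42 FPKM at MII and 173 ± 33.7 FPKM at GV (log2 change -4.86, SE 0.23, adjusted p = 1.33e-08), and Eef1d, a subunit of the elongation factor exchange complex, 0.996 ± 0.0662 FPKM at MII and 24.8 ± 5.18 FPKM at GV.

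Energy metabolism and redox genes were mostly lower. Of 18 glycolysis, lactate and pyruvate genes 3 rose and 12 fell (median -1.03), and of 15 citrate cycle genes 2 rose and 8 fell (median -1.20). Pkm, pyruvate kinase, averaged 2.97 ± 0.774 FPKM at MII and 37.1 ± 9.59 FPKM at GV (log2 change -3.25, SE 0.24, adjusted p = 3.97e-07), and Mdh2, mitochondrial malate dehydrogenase, 1.12 ± 0.374 FPKM at MII and 37.4 ± 7.19 FPKM at GV (log2 change -4.17, SE 0.22, adjusted p = 3.11e-08). Ldhb, a lactate dehydrogenase subunit, was measured at 1652, 2140.5 and 2789 FPKM at MII, against 5519, 5377 and 4951 FPKM at GV (2.41-fold lower, adjusted p = 0.000245). Of 16 redox genes 2 rose and 10 fell (median -1.67). Glrx, glutaredoxin, averaged 41.5 ± 9.25 FPKM at MII and 587 ± 56.4 FPKM at GV (log2 change -3.81, SE 0.20, adjusted p = 3.31e-08), Sod1, copper-zinc superoxide dismutase, 3.000 ± 0.587 FPKM at MII and 39.4 ± 12.3 FPKM at GV, and Gpx4, which reduces lipid peroxides, 0.175 ± 0.0589 FPKM at MII and 6.84 ± 0.922 FPKM at GV.

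Most proteasome subunit genes fell. Of 14 core 20S proteasome subunits 12 fell and 0 rose (median -1.87; 1 rose with quantile normalization), and of 17 subunits of the 19S particle 12 fell and 3 rose (median -1.59). Psmb7, a catalytic core subunit, was measured at 0.433, 0.675 and 0.3595 FPKM at MII, against 52.9, 49.5 and 59.4 FPKM at GV (log2 change -5.21, SE 0.20, adjusted p = 4.07e-09), and Psmc4, a 19S ATPase, at 3.84, 2.87 and 3.41 FPKM at MII, against 78.8, 64.1 and 69.2 FPKM at GV (log2 change -4.04, SE 0.19, adjusted p = 1.44e-08). Psme4, an alternative activator of the same core, was among the largest rises. The polyubiquitin gene Ubb fell to 523, 685 and 626 FPKM at MII, against 8778, 8698 and 8318 FPKM at GV (14.1-fold lower). Of 24 ubiquitin-conjugating enzyme genes 10 rose and 9 fell, near the shares of all genes (38.5% and 33.4%), with a median (0.05) that changed sign over the scalings. Ube2a, an E2 whose loss from the oocyte arrests mouse embryos early, fell to 5.81 ± 2.22 FPKM at MII, against 51.6 ± 3.66 FPKM at GV, and Birc6, a giant E2 and inhibitor of apoptosis, averaged 4.46 ± 0.342 FPKM at MII and 1.105 ± 0.457 FPKM at GV and rose. Of 14 TRiC and prefoldin genes 8 fell and 0 rose (median -1.29; 1 rose with quantile normalization and with TPM scaling), among them Cct5 at 115 ± 28.5 FPKM at MII and 474 ± 37.2 FPKM at GV. Of 17 heat shock chaperones 7 rose and 7 fell, but 3 rose and 7 fell with median-of-ratios scaling and 5 rose and 7 fell in the fit of the recovered reads, with Hspa8, the constitutive HSC70, at 18.3 ± 3.13 FPKM at MII and 144 ± 21.5 FPKM at GV (log2 change -2.92, SE 0.20, adjusted p = 2.48e-07).

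Most of the tested zona and secreted protein genes fell. Of 10 zona and secreted protein genes 7 fell and 1 rose (median -1.59), and 5 fell and 2 rose with quantile normalization and on the TPM scale. Zp1, the zona protein that links the filaments, averaged 48.3 ± 18.4 FPKM at MII and 1367 ± 656 FPKM at GV (log2 change -4.75, SE 0.36, adjusted p = 4.82e-07), and Fgf8, a growth factor that oocytes send to cumulus cells, 2.03 ± 0.355 FPKM at MII and 94.2 ± 10.7 FPKM at GV (log2 change -4.97, SE 0.19, adjusted p = 4.07e-09). The oocyte growth factors Gdf9 and Bmp15 had log2 changes of -0.53 and -0.48 (adjusted p = 0.0453 and 0.034), and neither call held with quantile normalization or on the TPM scale. Oosp1 was the member that rose, at 4552, 6665 and 3900.0 FPKM at MII, against 3239.9, 2878 and 3760.1 FPKM at GV, a call that held neither without each library nor with median-of-ratios scaling. Astl, the protease ovastacin that hardens the zona after fertilization, did not pass the test, at 249, 109 and 209 FPKM at MII, against 139, 235 and 75.5 FPKM at GV, with overlapping groups. Of 4 egg surface genes tested 2 fell and 1 rose. Izumo1r (JUNO, the receptor for sperm IZUMO1) fell to 19.4, 14.9 and 17.6 FPKM at MII, against 129, 117 and 122 FPKM at GV (log2 change -2.77, SE 0.18, adjusted p = 1.67e-07). Cd9, the tetraspanin needed for gamete fusion, was measured at 17.9, 11.5 and 8.39 FPKM at MII, against 171, 138 and 130.3 FPKM at GV (log2 change -3.49, SE 0.25, adjusted p = 3.2e-07). Cd55 rose (70.1 ± 10.05 FPKM at MII and 30.9 ± 2.72 FPKM at GV).

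Of 15 oocyte transcription factors tested 6 rose (40%, against 38.5% of all genes) and 3 fell (20%, against 33.4%), with a median of 0.29. The 3 that fell were the folliculogenesis factors Nobox, Figla and Lhx8. Nobox was measured at 33.6, 36.7 and 29.2 FPKM at MII, against 266, 367 and 177 FPKM at GV (log2 change -2.93, SE 0.25, adjusted p = 1.18e-06), Figla averaged 0.933 ± 0.755 FPKM at MII and 17.97 ± 3.08 FPKM at GV and Lhx8 14.8 ± 3.47 FPKM at MII and 83.8 ± 15.8 FPKM at GV. Nfya, a subunit of the CCAAT-binding factor NF-Y, rose to 21.1, 23.8 and 21.9 FPKM at MII, against 5.14, 5.79 and 5.602 FPKM at GV (log2 change 1.84, SE 0.19, adjusted p = 4.61e-06), and Gata4 averaged 8.36 ± 1.78 FPKM at MII and 1.94 ± 0.472 FPKM at GV.

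The subcortical maternal complex, a protein assembly under the egg cortex that early cleavage needs, had lower mRNA levels in most members. Of 10 tested 7 fell and 1 rose (median -1.69). Padi6 was measured at 281, 378 and 309.8 FPKM at MII, against 4087, 7030.0 and 2500.3 FPKM at GV (log2 change -3.69, SE 0.31, adjusted p = 1.1e-06), Tle6 at 125, 79.2 and 139.9 FPKM at MII, against 1449.6, 1816 and 878 FPKM at GV (log2 change -3.55, SE 0.29, adjusted p = 7.37e-07) and Ooep at 484, 698 and 479.6 FPKM at MII, against 3197, 2449 and 3387 FPKM at GV (log2 change -2.45, SE 0.22, adjusted p = 1.66e-06). GV replicate 2 was the highest and GV replicate 3 the lowest of the GV libraries for Padi6 and Tle6, yet both lay far above every MII library. Zbed3, a partner of the complex and the second most abundant mRNA at both stages, did not pass the test (13383, 10239.5 and 15703 FPKM at MII, against 10025, 12471 and 7047 FPKM at GV). Of 26 other maternal effect genes 12 rose (46.2%, against 38.5% of all genes) and 7 fell (26.9%, against 33.4%), with a median of 0.39. Npm2, the oocyte nucleoplasmin, averaged 1017 ± 256 FPKM at MII and 3032 ± 168 FPKM at GV (log2 change -1.60, SE 0.21, adjusted p = 3.85e-05), and Zfp57, which protects imprints, 302 ± 14.1 FPKM at MII and 996 ± 163 FPKM at GV (log2 change -1.71, SE 0.19, adjusted p = 9.3e-06). Brwd1, a bromodomain chromatin gene, rose to 11.2 ± 2.12 FPKM at MII, against 2.83 ± 0.777 FPKM at GV.

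In the cAMP and cGMP system that holds prophase arrest, 7 of 10 rose and 1 fell (median 1.20, 1.08 to 1.61 over 4 other scalings). Pde3a, the phosphodiesterase that lowers cAMP at meiotic resumption, averaged 23.6 ± 2.704 FPKM at MII and 6.46 ± 1.95 FPKM at GV (log2 change 1.75, SE 0.23, adjusted p = 3.63e-05). Gja4, connexin 37 of the gap junctions with cumulus cells, was the member that fell, at 26.6, 14.1 and 20.9 FPKM at MII, against 351, 431 and 231 FPKM at GV (log2 change -3.97, SE 0.27, adjusted p = 2.17e-07). Among cyclin B, CDK1 and their regulators 2 of 21 rose and 8 fell, but 6 rose and 5 fell with quantile normalization, 5 rose and 4 fell on the TPM scale, and the median of -0.10 changed sign over the scalings (-0.25 to 0.15). Ccnb1, cyclin B1, was measured at 519, 466 and 476 FPKM at MII, against 438, 412 and 536 FPKM at GV (log2 change 0.08, 95% interval -0.32 to 0.49). Cdk1 mRNA was low at GV and lower at MII, at 0.216, 0.172 and 0.1496 FPKM at MII, against 6.03, 4.23 and 4.03 FPKM at GV (log2 change -2.27, SE 0.18, adjusted p = 6.01e-07), and Aurka, Aurora kinase A, averaged 83.9 ± 25.2 FPKM at MII and 244 ± 35.7 FPKM at GV. In the MOS, MAPK and cytostatic factor list 5 of 13 rose and 4 fell, close to the 38.5% and 33.4% of all genes, with a median (-0.06) of either sign over the scalings. Mapk3, which encodes ERK1, fell to 28.8, 16.5 and 28.3 FPKM at MII, against 156, 194 and 93.7 FPKM at GV (log2 change -2.52, SE 0.29, adjusted p = 1.27e-05).

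Calls were also mixed in the lists of the APC, the checkpoint and the spindle. Of 18 APC genes 7 rose (38.9%, against 38.5% of all genes) and 9 fell (50%, against 33.4%). Their median was -0.19 (-0.77 to 0.00 over 4 other scalings). Anapc1, the scaffold subunit, averaged 7.82 ± 1.23 FPKM at MII and 2.395 ± 0.893 FPKM at GV and rose, while Fzr1, the coactivator CDH1 of prophase arrest, fell to 1.79 ± 0.311 FPKM at MII, against 6.14 ± 0.944 FPKM at GV. Of 19 spindle checkpoint genes 9 rose (47.4%, against 38.5% of all genes) and 7 fell (36.8%, against 33.4%), with a median of 0.26. Birc5, survivin of the chromosomal passenger complex, was measured at 117, 129 and 109.8 FPKM at MII, against 764, 651 and 833 FPKM at GV (log2 change -2.64, SE 0.18, adjusted p = 2.44e-07). Of 30 spindle genes 11 rose and 11 fell (median 0.38), near the shares of all genes (38.5% and 33.4%). The tubulin genes Tubb4b, Tuba1b and Tubb2a had the 3 deepest falls of the list. Tubb4b, a beta-tubulin isotype, was measured at 9.37, 6.14 and 7.16 FPKM at MII, against 321, 337 and 266 FPKM at GV (40.8-fold lower). Of 17 cohesin and condensin genes 11 rose and 1 fell (median 0.79, 0.66 to 1.13 over 4 other scalings). Rad21, the mitotic kleisin, was measured at 39.5, 34.2 and 31.8 FPKM at MII, against 11.4, 6.77 and 5.71 FPKM at GV (log2 change 2.06, SE 0.24, adjusted p = 1.52e-05), and Smc3, a cohesin core subunit, at 56.6, 42.3 and 40.8 FPKM at MII, against 17.7, 12.97 and 20.3 FPKM at GV.

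Of 26 actin genes 10 rose and 9 fell, near the shares of all genes (38.5% and 33.4%), with a median (0.07) of either sign over the scalings. Tmsb10, a thymosin that binds actin monomers, was measured at 6.55, 8.24 and 7.08 FPKM at MII, against 294, 221 and 305 FPKM at GV (37.5-fold lower, log2 change -5.04, SE 0.20, adjusted p = 4.07e-09), and Cfl1, cofilin, at 158, 136 and 215 FPKM at MII, against 777, 947 and 708 FPKM at GV (log2 change -2.26, SE 0.22, adjusted p = 2.91e-06). Of 13 calcium genes of egg activation 9 rose and 3 fell (median 0.66). Itpr1, the IP3 receptor that releases calcium at fertilization, averaged 3.305 ± 0.237 FPKM at MII and 0.861 ± 0.3003 FPKM at GV (log2 change 1.22, SE 0.18, adjusted p = 9.35e-05), and the pump gene Atp2a2 119 ± 7.05 FPKM at MII and 37.6 ± 13.2 FPKM at GV. Orai1, the plasma membrane channel, fell to 0.839 ± 0.426 FPKM at MII, against 10.7 ± 0.803 FPKM at GV.

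Deadenylation genes rose more often than they fell. Of 20 deadenylation genes 11 rose and 2 fell (median 0.76, 0.61 to 1.03 over 4 other scalings). This list shares members, such as Cnot6l, with the stored mRNAs above, so the lists are not separate results. Cnot6l was measured at 92.8, 103 and 80.2 FPKM at MII, against 25.9, 15.96 and 14.6 FPKM at GV (log2 change 2.27, SE 0.23, adjusted p = 5.26e-06), Pan3, which works with the PAN2 deadenylase, at 5.44, 6.04 and 5.16 FPKM at MII, against 1.82, 1.69 and 1.17 FPKM at GV and Pum2, an RNA-binding Pumilio protein, at 35.8, 25.2 and 25.4 FPKM at MII, against 11.1, 7.28 and 5.54 FPKM at GV. All 3 had every MII library above every GV library, which adds no support, since list members were named by smallest p. In decapping and 5′ to 3′ decay 6 of 13 rose (46.2%, against 38.5% of all genes) and 5 fell (38.5%, against 33.4%). Their median (0.32) was of either sign over the scalings. Xrn2, the nuclear exonuclease, averaged 50.8 ± 3.97 FPKM at MII and 21.4 ± 1.08 FPKM at GV and rose, and Patl2, an oocyte-enriched member of the PAT1 family, averaged 3.37 ± 1.02 FPKM at MII and 31.5 ± 13.5 FPKM at GV and fell. Of 13 exosome genes 1 rose and 3 fell, with a median (-0.04) of either sign over the scalings, although Exosc5, a ring subunit, averaged 0.276 ± 0.0386 FPKM at MII and 4.58 ± 0.466 FPKM at GV (log2 change -2.13, SE 0.16, adjusted p = 4.87e-07). Of 8 uridylation and tail polymerase genes 4 rose (50%, against 38.5% of all genes) and 2 fell (25%, against 33.4%), with a median of 0.40. Tut7, a terminal uridylyl transferase of maternal mRNA decay, averaged 3.73 ± 0.729 FPKM at MII and 1.04 ± 0.0952 FPKM at GV (log2 change 1.21, SE 0.18, adjusted p = 0.000116).

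Tail lengthening and poly(A)-binding genes had mixed calls, while mRNA storage genes rose more often than they fell. Of 18 CPEB and cleavage factor genes 7 rose and 7 fell, near the shares of all genes (38.5% and 33.4%), with a median (0.34) of either sign over the scalings. Cpeb4, which takes over from CPEB1 late in frog meiosis, rose to 18.6, 17.2 and 14.6 FPKM at MII, against 4.52, 2.73 and 2.21 FPKM at GV (log2 change 2.13, SE 0.24, adjusted p = 9.71e-06), and Cpeb3 averaged 5.53 ± 0.0855 FPKM at MII and 1.22 ± 0.399 FPKM at GV (log2 change 1.57, SE 0.20, adjusted p = 2.77e-05). Of 8 poly(A)-binding genes 3 rose and 3 fell (37.5% each, against 38.5% and 33.4% of all genes), with a median of 0.24. Pabpc1l, the oocyte poly(A)-binding protein ePAB, averaged 11.6 ± 5.23 FPKM at MII and 46.2 ± 15.2 FPKM at GV and fell, and Paip2, an inhibitor of poly(A)-binding protein, was measured at 29.2, 28.4 and 31.8 FPKM at MII, against 251, 184 and 367 FPKM at GV (log2 change -3.07, SE 0.24, adjusted p = 5.81e-07). Of 19 storage protein genes 10 rose and 3 fell (median 0.66, 0.41 to 1.11 over 4 other scalings), and Zar1l and Ybx2 were among those that fell. Zar1l was measured at 11.00, 9.64 and 6.18 FPKM at MII, against 260.1, 201 and 259 FPKM at GV (26.8-fold lower, log2 change -4.62, SE 0.23, adjusted p = 1.7e-08), and Ybx2 (MSY2), the cold shock protein that coats stored mRNA, at 1.98, 1.48 and 2.25 FPKM at MII, against 20.1, 16.1 and 12.3 FPKM at GV (log2 change -2.55, SE 0.23, adjusted p = 1.71e-06). Lsm14b rose to 9.803, 10.8 and 7.42 FPKM at MII, against 2.57, 2.28 and 2.04 FPKM at GV (log2 change 1.64, SE 0.21, adjusted p = 2.92e-05), and its paralog Lsm14a averaged 50.9 ± 6.54 FPKM at MII and 13.3 ± 2.49 FPKM at GV.

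Splicing, replication and histone genes had mixed calls, while RNA polymerase II and general factor genes fell more often than they rose. Of 40 spliceosome genes 14 rose and 15 fell, near the shares of all genes (38.5% and 33.4%), with a median (0.07) of either sign over the scalings. Of 31 RNA polymerase II and general factor genes 8 rose and 18 fell (median -0.70, -0.84 to -0.49 over 4 other scalings). Phf5a, an SF3B subunit, averaged 106 ± 5.198 FPKM at MII and 354 ± 40.01 FPKM at GV (log2 change -1.73, SE 0.18, adjusted p = 6.13e-06), Polr2g, the RPB7 subunit of RNA polymerase II, 107 ± 15.7 FPKM at MII and 634 ± 80.9 FPKM at GV (log2 change -2.56, SE 0.19, adjusted p = 4.74e-07), and Supt4a, a subunit of the elongation factor DSIF, 0.833 ± 0.273 FPKM at MII and 19.96 ± 2.398 FPKM at GV. Of 27 replication genes 7 rose and 11 fell, with a median (0.08) of either sign over the scalings, and Rpa2, of the single-strand binding complex, averaged 1.98 ± 0.165 FPKM at MII and 49.5 ± 6.32 FPKM at GV (log2 change -4.08, SE 0.19, adjusted p = 1.43e-08). Of 19 histone variant and histone mRNA genes 8 rose (42.1%, against 38.5% of all genes) and 5 fell (26.3%, against 33.4%), with a median of 0.33. Lsm10, of the U7 particle that processes histone mRNA, averaged 11.4 ± 1.503 FPKM at MII and 299 ± 52.9 FPKM at GV (log2 change -4.58, SE 0.20, adjusted p = 8.27e-09). Slbp, which binds the histone mRNA stem-loop, averaged 1135 ± 46.4 FPKM at MII and 742 ± 181 FPKM at GV (log2 change 0.64). In the BCL2 family 5 of 15 genes passed the filter and 2 were called, Bcl2l11 higher (0.70) and Bax lower (-0.85). Of the 2-cell embryo genes 5 of 16 passed it, of which 0 rose and 1 was called lower, Tcstv3 (-0.53, adjusted p = 0.0451), a call that did not hold with quantile normalization, on the TPM scale or in the fit of the recovered reads.

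**Figure D4:**
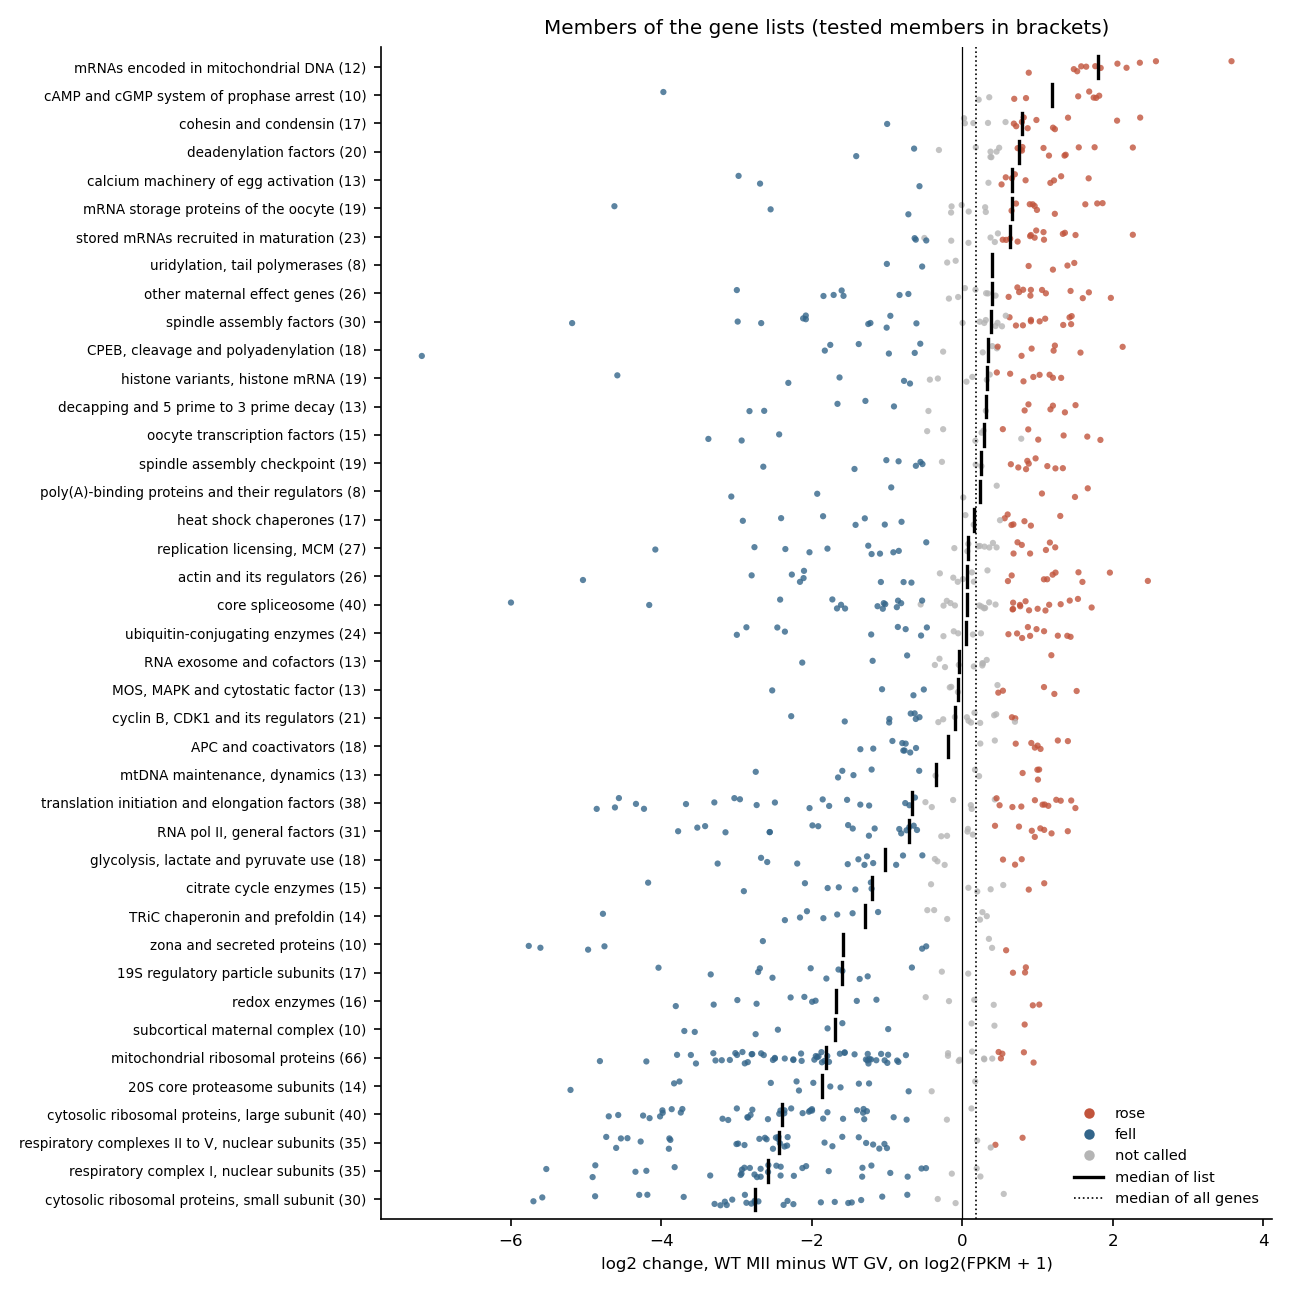
Log2 change from WT GV to WT MII of every tested member of 41 gene lists, ordered by the list's median; points are genes that rose, fell or were not called, short bars are list medians, and the dotted line is the median of all genes (0.18). Ribosomal and respiratory lists lie at the bottom with medians of -2.39 to -2.76, apart from mitochondrial ribosomal proteins at -1.81, and transcripts of mitochondrial DNA at the top with 1.81.

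The most abundant mRNAs changed rank. Bcl2l10, an oocyte member of the BCL2 family, led both stages with 15523, 15180.2 and 16208 FPKM at MII, against 12193, 10978 and 12396 FPKM at GV and did not pass the test (log2 change 0.40, SE 0.19, adjusted p = 0.0727). H1foo, the oocyte linker histone, stood at 10371, 11739.5 and 12569 FPKM at MII, against 9442, 7916 and 10346 FPKM at GV and did not pass the test. Spin1, a spindle-associated chromatin reader of the oocyte, rose to 6152, 7979 and 7476 FPKM at MII, against 3319, 3361 and 4624 FPKM at GV (log2 change 0.94, SE 0.21, adjusted p = 0.00178). The 10 most abundant at MII also held Btg4, Oosp1, Zbed3 and the mitochondrial mt-Cytb, mt-Co1, mt-Nd1 and mt-Rnr2. At GV they held Zp3, Ubb, Elobl, Nlrp14, Ldhb, Gm813 and Skp1a (the SKP1 subunit of SCF ligases), and all 7 fell. Gm813 was measured at 55.8, 84.6 and 37.8 FPKM at MII, against 4973, 3915 and 6196 FPKM at GV (84.6-fold lower), and Elobl at 691, 583 and 326 FPKM at MII, against 8534, 7149 and 9472 FPKM at GV (15.7-fold lower). Nlrp14, an oocyte NLR gene, averaged 2144 ± 325 FPKM at MII and 6436 ± 1332 FPKM at GV.

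Some mRNAs had log2 changes close to 0. The 95% interval of the log2 change lay between -0.5 and 0.5 for 229 genes. The 10 with the highest means were Ccnb1, Ube2d3, Taf1a, Cdc42, Fbxo5, Hnrnpk, Ncapg, Slc25a17, Nlrp4e and Esco2. Cdc42, a small GTPase of spindle and cortex polarity, was measured at 198, 203 and 214 FPKM at MII, against 192, 202 and 217 FPKM at GV. Fbxo5, the APC inhibitor EMI1, was measured at 174, 181 and 188 FPKM at MII, against 204, 199.9 and 163 FPKM at GV. The groups overlapped in both genes. Whether these genes count as level rests on the scaling. The log2 changes of the 10 were -0.08 to 0.09 here, 0.18 to 0.34 on the TPM scale, -0.23 to -0.07 with median-of-ratios scaling and 0.18 to 0.59 with quantile normalization, by which Ccnb1 (0.57), Ube2d3 (0.48), Taf1a (0.59), Cdc42 (0.52) and Fbxo5 (0.42) passed the test.

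WT oocytes at MI, between the stages, are given side by side for named genes. MI and MII are each compared with the same GV libraries, so the values share them, and the tests are from the fit of all 18 libraries. Cpsf4l stood at 328, 347 and 253 FPKM at GV, 35.5, 118 and 58.4 at MI and 1.43, 1.24 and 0.739 at MII, and Bud31 at 367, 315 and 416 FPKM at GV, 55.8, 138 and 50.4 at MI and 4.35, 5.78 and 4.13 at MII. In both the MI libraries were below all GV libraries (MI minus GV, log2 change -2.27, adjusted p = 0.00156, and -2.30, adjusted p = 0.00156) and far above all MII libraries.

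Other genes were far lower at MII than at MI. Ninj2 stood at 767, 587 and 798 FPKM at GV, 526, 675 and 834 at MI and 11.2, 12.2 and 9.06 at MII (MI minus GV -0.09, adjusted p = 0.823; MII minus MI -5.83, adjusted p = 1.24e-11). Tmsb10 stood at 294, 221 and 305 FPKM at GV, 447, 257 and 345 at MI and 6.55, 8.24 and 7.08 at MII (MII minus MI -5.37, adjusted p = 5.6e-10). The GV and MI libraries overlapped in these genes and all lay above the MII libraries. Rps13, Ooep, Birc5, Cd9, Paip2 and Elobl had MI means of 65.2, 3338, 798, 147, 319 and 9588 FPKM and did not pass the test from GV to MI. Zp2 and Zp3 lay between, at MI means of 1538 and 3969 FPKM. Among the rises, Cnot6l stood at 25.9, 15.96 and 14.6 FPKM at GV, 90.05, 50.2 and 32.5 at MI and 92.8, 103 and 80.2 at MII and mt-Nd2 at 177, 91.9 and 215 FPKM at GV, 1154, 1134 and 528 at MI and 1295, 2152 and 2192 at MII. MI libraries of these genes spread widely, by 29.5 and 356 FPKM (SD, n = 3).

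**Figure D5:**
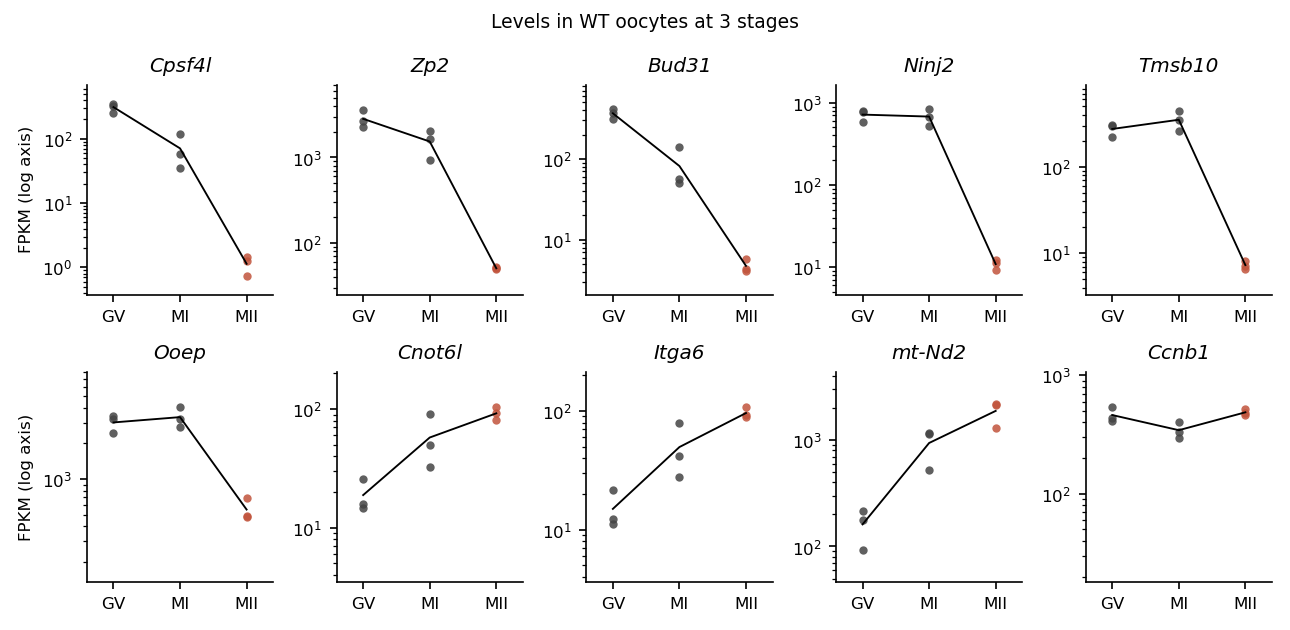
FPKM of 10 named genes in WT oocytes at GV, MI and MII on a log axis; points are libraries and the line joins the means of 3. Cpsf4l and Bud31 are lower at MI already, Ninj2, Tmsb10 and Ooep overlap between GV and MI and are lower at MII, and the Ccnb1 libraries lie between 297 and 536 FPKM.

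A minority of genes passed a test for a difference between the genotypes in the change from GV to MII. Genes that did not pass are not shown to change alike. KO oocytes were collected at the same 14 h, and the labels do not say whether each had reached metaphase II. Lsm14b itself averaged 0.113 FPKM in KO MII oocytes and 0.116 in KO GV oocytes. In the contrast of the 2 changes, 683 of 8680 genes (7.87%) passed an adjusted p of 0.05, 438 (5.05%) with a higher change in KO and 245 (2.82%) with a lower one. Among the genes named for this contrast and reported here, Zp2 had the largest difference. Its KO change was -1.20 and its WT change -5.76 (difference 4.57, SE 0.41, adjusted p = 8.78e-06). Zp2 stood at 1219, 1367 and 939.9 FPKM in KO MII libraries and 3054, 1903 and 3246 in KO GV libraries, against 51.6, 48.8 and 50.6 in WT MII and 2655, 3576 and 2271 in WT GV libraries. The counts of genes past the threshold depend on single libraries, from 205 to 819 higher and from 44 to 1840 lower when 1 library is left out. The highest counts are those without KO GV replicate 3.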

How the data were processed

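The authors deposited FPKM per gene for 18 libraries of 15 oocytes; per the labels' protocols an oligo(dT) primer started the cDNA, which Smart-seq2 amplification and shearing followed. The submitters' processing notes name mm10 and DESeq2 1.38.3; aligner, counter, annotation and strand: not given in the sources used here. Identifiers were matched to GENCODE vM21 (27829 of 27874). FPKM times exon length gave whole reads within 0.05 for 92.8% to 93.3% of nonzero values, from which depth was recovered; without molecular identifiers this covers counting error only.

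log2(FPKM + 1) was fitted with limma 3.58.1 (R 4.3.3; lmFit, eBayes with trend) on the 3 MII and 3 GV libraries, with Benjamini-Hochberg adjustment over 8680 genes, two-sided. The genotype contrast used all 18 libraries. The scripts were tested on simulated data. Python 3.11.15, pandas 2.3.3 and scipy 1.17.1 made the tables. SDs are over 3 libraries.

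The 47 gene lists (1076 symbols found) and the rules were chosen with earlier results of these data known. The lists overlap, with 37 genes in more than 1. Named genes were the 15 largest rises and falls (adjusted p under 0.05, mean of at least 20 FPKM in the higher group, no overlap, call held without each library, no predicted genes, clones or pseudogenes), up to 5 members per list with the smallest p plus the most abundant where fewer than 5 passed, the 10 most abundant per stage, the 10 most abundant with an interval within 0.5, and the 5 largest genotype differences each way, of which 1 gene is not reported here; other members of a list named beside them were chosen after their values were seen. Alternatives changed the pseudocount, filter, scaling, libraries in the fit, replicate block and test.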

Additional observations from a re-analysis of the deposited data

Results flagged for a closer look

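These 9 genes were among those with the largest differences between the genotypes in the change from GV to MII, each past an adjusted p of 0.05 in limma's contrast of the 2 changes (KO change minus WT change, all 18 libraries). The share of all genes past it was 7.87%. No explanation was weighed.

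In 4 genes the fall seen in WT oocytes was smaller or absent in KO oocytes. The difference was 4.57 for Zp2, whose values are in the report. For Cd9 it was 4.18 (adjusted p = 2.66e-05), with 246, 223 and 251 FPKM in KO MII libraries and 208, 94.4 and 164 in KO GV libraries, against 17.9, 11.5 and 8.39 in WT MII and 171, 138 and 130.3 in WT GV libraries. Paip2 had a difference of 3.85 (adjusted p = 3.23e-05) and 363, 327 and 316 FPKM in KO MII libraries and 219.7, 109 and 307 in KO GV libraries, against 29.2, 28.4 and 31.8 in WT MII and 251, 184 and 367 in WT GV libraries. Tmsb10 had 3.60 (adjusted p = 0.000135), with a KO change of -1.44 and 292, 184 and 296 FPKM in KO MII libraries and 583, 1237 and 448 in KO GV libraries, against 6.55, 8.24 and 7.08 in WT MII and 294, 221 and 305 in WT GV libraries. All 4 calls held without each of the 12 GV and MII libraries.

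In 5 genes the change was lower in KO. Kdm7a had a difference of -2.16 (adjusted p = 0.00248), with 1.57, 0.676 and 1.42 FPKM in KO MII libraries and 1.43, 1.24 and 0.565 in KO GV libraries, against 37.2, 33.6 and 27.4 in WT MII and 6.52, 5.76 and 5.76 in WT GV libraries; this call held without each library. Those of Hist1h1a (-2.56, adjusted p = 0.0412), Rif1 (-2.28, adjusted p = 0.0272), Zmat2 (-2.19, adjusted p = 0.0432) and mt-Nd2 (-2.08, adjusted p = 0.0483) did not. KO GV replicate 2 was the highest of the KO GV libraries for Hist1h1a (39.1 FPKM, against 9.37 and 4.300 in the other two) and Zmat2 (70.2 FPKM, against 18.4 and 14.5). Its part in these differences was not tested beyond leaving it out.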

How the results depend on the processing

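The counts of genes higher and lower at MII (3339 and 2897) stayed within 1.5 times under pseudocounts of 0.1 and 5, no filter and other scalings. They also did so in fits of 9 or 18 libraries, with voom and with each library left out. The higher count ran from 2847 (without WT MII replicate 1) to 3914 (quantile normalization). The lower count ran from 2581 (TPM scaling) to 3738 (no filter). Genes called lower outnumbered those called higher with no filter (3738 and 3310) and with median-of-ratios scaling (3108 and 2982). A filter at 5 FPKM left 2024 higher and 1638 lower, and a 2-fold minimum left 1555 higher. Of 239 called named genes 232 kept call and direction in every setting run, and with quantile normalization Ube2d3 and Fbxo5 turned to 0.48 and 0.42.

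The genotype counts (438 and 245) moved to 868 and 371 with median-of-ratios scaling and to 688 and 668 with quantile normalization; the lower count was 156 in a fit of 12 libraries. Leaving out each library gave 205 to 819 higher and 44 to 1840 lower, the highest without KO GV replicate 3 and the lowest without KO MII replicate 1. The higher count also moved by over 1.5 times without WT GV replicates 1 and 2 and WT MII replicates 2 and 3 (231 to 284), and the lower count without every library but KO MII replicate 3. The cause was not tested.

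Same-numbered MII and GV libraries did not deviate together (correlations of 0.0884, -0.346 and -0.282 for numbers 1, 2 and 3), and among the 6 libraries only GV replicate 1 correlated best with its own number. With the number as a replicate block 3177 genes were higher and 2846 lower, and the genotype counts were 383 and 177. Depth limits genes near 1 FPKM most, which rest on few reads.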

Other observations

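Some paralogs stood on opposite sides of the GV to MII change in WT oocytes. The pairs were chosen after their values were seen, and the difference within a pair was not tested. Cpeb1, the CPE-binding protein of prophase oocytes, was measured at 88.6, 54.9 and 62.5 FPKM at MII, against 197, 221 and 126 FPKM at GV (log2 change -1.37), while Cpeb4 rose by 2.13. Ybx1 was measured at 59.7, 78.1 and 56.9 FPKM at MII, against 22.7, 9.52 and 25.6 FPKM at GV (log2 change 1.80), against a fall of Ybx2.

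Cyp19a1, the aromatase gene of granulosa cells, stood at 5.11 ± 0.845 FPKM at MII and 2.996 ± 0.253 FPKM at GV (SD, n = 3 each), while most other granulosa markers were near 0 in the same libraries.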
